A study of Mus musculus with 9 samples.

Results

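The 10 genes described here are Mest and 9 other imprinted genes tied to growth: H19, Dlk1, Peg3, Grb10, Plagl1, Ndn, Igf2r, Zim1 and Rian. They were followed by microarray in wild-type Balb/c mouse primary muscle cells, as cycling myoblasts (0 days) and as myotubes after 2 and 5 days in the medium that the sample titles call differentiating, with 3 arrays per time point and 9 in all. Myoblasts are the dividing precursors of skeletal muscle, and myotubes are the multinucleate cells they form by fusing. The labels give skeletal muscle as the tissue of origin for every group and list one medium with serum and bFGF for all samples, so the change of medium is known from the titles alone. They do not say whether the replicates of a time point were separate cultures or animals, so the spread between arrays may be technical.

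A gene was represented by the probe set whose platform annotation names that gene alone, or by the one with the highest mean where there were several. Of the 10 genes, 9 had such a probe set, each a single one, among 19938 genes so represented. H19 had none and has no value here. A low-value filter, which kept genes above the 30th percentile of the array on at least 3 arrays, left 8 of the 9 and 16582 genes in all. Rian was outside it, at 2.70 on all 3 cycling arrays, 2.21 on all 3 day 2 arrays and 2.42 on all 3 day 5 arrays, against filter values of 3.13 to 3.14, 3.32 to 3.35 and 3.10 to 3.13. The lowest level among the genes inside it was that of Grb10 in cycling myoblasts, 3.52, which passed the filter value but was under the array median. The group was drawn up with results of these arrays known, the fall of Mest by day 5 among them, so the levels of its genes are a description and carry no test.

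An imprinted gene is read mainly from the chromosome inherited from one parent, a state held by DNA methylation at control regions. Genes read from the father's copy, such as Mest, Peg3, Plagl1, Ndn and Dlk1, include many that promote growth, and genes read from the mother's copy, such as Igf2r, H19 and, outside neurons, Grb10, include many that restrain it. Most are highly active in the embryo and the young animal and decline as tissues mature. In muscle, Peg3 and Dlk1 are known from satellite cells and regenerating fibres, and necdin, the product of Ndn, from myoblast differentiation.

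RefSeq promoters (assembly GRCm38.p6, 250 bases before to 50 bases after a transcript start) were found for 9 of the 10 genes, 12 promoters in all, and H19 was not among them. The 6 printed here belong to the genes with the largest decrease and the largest increase, Mest and Grb10, and to the adjoining pair Peg3 and Zim1, whose levels moved alike. Capitals mark CG dinucleotides, the sites of the DNA methylation on which imprinting rests. Mest and Grb10 each have an upstream and a downstream start. The Mest promoters lie at chr6:30733256-30733555 and chr6:30737800-30738099 on the plus strand, and a further Mest start lies 3 bases after the latter. Those of Grb10 lie at chr11:12037371-12037670 and chr11:12027922-12028221, that of Peg3 at chr7:6730370-6730669 and that of Zim1 at chr7:6696383-6696682, all on the minus strand.
Mest upstream: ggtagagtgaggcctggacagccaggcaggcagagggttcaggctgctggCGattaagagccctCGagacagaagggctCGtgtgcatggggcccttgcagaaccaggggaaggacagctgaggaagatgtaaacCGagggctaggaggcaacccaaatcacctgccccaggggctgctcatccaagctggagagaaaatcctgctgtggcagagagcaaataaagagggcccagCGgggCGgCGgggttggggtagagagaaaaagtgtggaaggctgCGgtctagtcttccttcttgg
Mest downstream: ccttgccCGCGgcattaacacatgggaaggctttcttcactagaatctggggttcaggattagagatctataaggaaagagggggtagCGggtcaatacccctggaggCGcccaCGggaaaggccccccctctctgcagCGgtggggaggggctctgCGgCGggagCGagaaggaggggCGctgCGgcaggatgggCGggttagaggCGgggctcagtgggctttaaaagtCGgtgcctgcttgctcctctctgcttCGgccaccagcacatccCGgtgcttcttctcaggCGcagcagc
Grb10 upstream: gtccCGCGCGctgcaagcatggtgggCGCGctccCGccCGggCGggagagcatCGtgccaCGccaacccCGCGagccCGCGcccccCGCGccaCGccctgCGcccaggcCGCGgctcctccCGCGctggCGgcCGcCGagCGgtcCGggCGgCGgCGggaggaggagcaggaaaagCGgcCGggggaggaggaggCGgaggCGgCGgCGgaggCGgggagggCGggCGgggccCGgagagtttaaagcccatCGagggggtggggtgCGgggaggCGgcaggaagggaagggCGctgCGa
Grb10 downstream: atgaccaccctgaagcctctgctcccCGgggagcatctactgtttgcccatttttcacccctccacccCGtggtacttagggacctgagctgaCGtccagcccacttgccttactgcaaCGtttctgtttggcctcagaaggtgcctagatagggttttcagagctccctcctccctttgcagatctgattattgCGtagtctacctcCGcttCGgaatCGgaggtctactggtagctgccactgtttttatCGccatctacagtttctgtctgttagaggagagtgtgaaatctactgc
Peg3: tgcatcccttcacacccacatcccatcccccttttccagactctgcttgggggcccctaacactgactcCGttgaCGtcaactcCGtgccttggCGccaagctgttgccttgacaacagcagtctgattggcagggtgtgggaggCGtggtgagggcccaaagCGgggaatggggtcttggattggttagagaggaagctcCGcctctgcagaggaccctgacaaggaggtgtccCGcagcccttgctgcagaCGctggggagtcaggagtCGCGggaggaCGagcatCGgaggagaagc
Zim1: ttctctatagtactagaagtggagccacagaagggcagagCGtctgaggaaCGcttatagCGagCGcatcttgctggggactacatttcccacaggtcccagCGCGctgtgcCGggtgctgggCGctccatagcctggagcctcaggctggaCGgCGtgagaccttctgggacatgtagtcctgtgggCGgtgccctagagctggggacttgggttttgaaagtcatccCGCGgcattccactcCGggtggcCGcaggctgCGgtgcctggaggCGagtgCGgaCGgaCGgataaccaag

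CG counts differed widely among these promoters. The upstream Grb10 promoter held 45 CG, more than 98.1% of the 32851 promoters of the same length in the table, and the downstream one held 9. The 2 Mest promoters printed held 8 and 17, Peg3 13 and Zim1 20, against a median of 7 over all promoters. Of the other genes, Igf2r had 34, Plagl1 26, Ndn 11, Dlk1 9 and Rian 0, so that 11 of the 12 promoters were above that median. The E-box CANNTG, the core motif bound by myogenic bHLH factors and searched on both strands (it reads the same on each), was present in 7 of the 12, against 72.3% of all promoters. Its form CAGCTG was present in 1, the upstream Mest promoter, against 16.3% of all. The downstream Mest promoter and that of the further start beside it overlap almost wholly, each with 17 CG, and both count among the 12. Each gene had 1 probe set, so its value is not divided between its starts.

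Values are log2 RMA values. The authors normalized the 3 time points apart, so each change is given as a pair of log2 fold changes (log2FC): first as deposited, then after quantile normalization of all 9 arrays, here called the common scale. The normalization and the time point are confounded, so their shares in a change cannot be told apart. Where all 3 arrays of a time point hold 1 repeated value, the SD as deposited is 0. This was so for Mest, Plagl1 and Peg3 at day 2, so their SEs as deposited in comparisons with day 2 rest on the other group's spread alone. On the common scale their day 2 SDs were 0.0015, 0.0018 and 0.0076, so those SEs too rest almost wholly on the other group. No SE is printed for Ndn, Grb10, Igf2r or Dlk1. Moving to the common scale raised a gene's log2FC against cycling myoblasts by a median of 0.169 at day 2 and 0.748 at day 5 over all genes. The median log2FC of all genes moved from -0.01 to 0.09 at day 2 and from -0.37 to 0.17 at day 5. The array medians were 4.33 to 4.35 in cycling myoblasts, 4.26 at day 2 and 3.98 to 3.99 at day 5. The labelled cells were checked against markers. All 6 myoblast markers and all 6 measured myotube markers were above the array median at every time point. On the linear scale the myotube list summed to 3946 to 4642, 21170 to 21197 and 14888 to 15383 in time order. The myoblast list summed to 5930 to 6441, 6328 to 6352 and 4242 to 4350. At day 5 Myod1, Myf5, Cdh15 and Pax7 (log2FC -2.91 and -2.08) were lower on both scales. Des was higher on both (1.13 and 1.69), and the direction of Itga7 depended on the scale (-0.20 and 0.57). Among 6 measured fibroblast markers, Lum and Dpt were at or below the filter on all arrays, whereas Col3a1 had mean levels of 8.92, 6.06 and 4.77 in time order, and the list summed to 556 to 569, 128 to 129 and 94.3 to 95.4. Pdgfra of the same list had log2FC -0.62 and -0.62 at day 2 and 0.07 and 0.56 at day 5. Thy1 of that list was above the array median at each time, with mean levels of 5.03, 4.69 and 4.68. Of 4 mural cell markers, Rgs5 was at 6.65 and then at or below the filter, and the list summed to 155 on the cycling arrays, 75.4 at day 2 and 57.6 at day 5. The other mural markers did not share the course of Rgs5, with log2FC at day 2 and then day 5 of 0.25 and 0.29, then 0.50 and 1.00, for Cspg4, 0.92 and 1.00, then -0.50 and -0.23, for Pdgfrb, and -0.30 and -0.23, then -0.44 and -0.10, for Myh11. Mural markers above the array median numbered 1, 2 and 1 of 4 in time order. Endothelial markers were above the array median in 0 of 5 cases at each time, and macrophage markers in 1 of 5 among cycling myoblasts and 0 afterwards. Adipocyte markers were above it in 2 of 5 cases at each time, and Schwann cell markers in 0, 1 and 1 of 2 in time order. The lower levels of Col3a1 and Rgs5 ran beside those of the imprinted genes below, and their part in them was not tested. In bulk RNA, fewer cells of a type and less RNA per cell cannot be told apart.

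Mest, a paternally expressed hydrolase-fold protein of the endoplasmic reticulum, had the largest decrease of the 8. It was at 11.86, 11.96 and 11.91 on the cycling arrays, at 7.15 on all 3 day 2 arrays, and at 4.66, 4.74 and 4.74 on the day 5 arrays. Each time point was below the one before. Relative to cycling myoblasts the log2FC at day 2 was -4.76 ± 0.027 (SE, n = 3 per group), and -4.79 ± 0.031 after the common normalization, a level 27.0 and 27.6 times lower. At day 5 it was -7.20 ± 0.039 and -6.64 ± 0.049, or 147 and 99.8 times lower. Mest thus had the lowest log2FC of all 16582 genes at day 5 on both scales, whereas at day 2 it ranked number 34 from the bottom as deposited and number 25 on the common scale. The decrease went on between the myotube stages, with log2FC -2.44 ± 0.027 and -1.85 ± 0.038 from day 2 to day 5. Even at day 5 the probe set was above the array median.

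**Figure D1:**
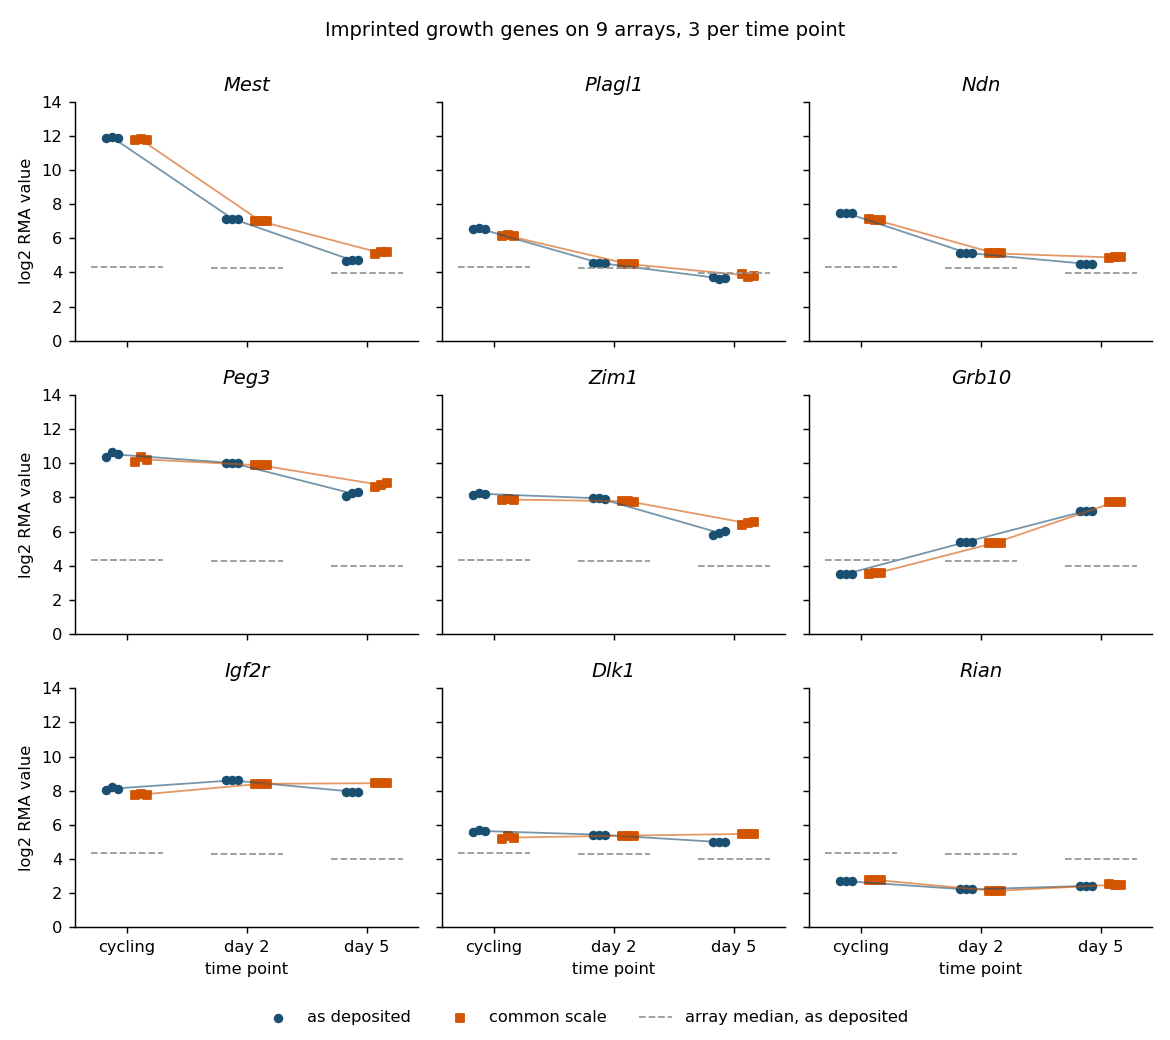
Log2 RMA values of the 9 genes with a probe set (vertical axis) at each time point (horizontal axis); each point is 1 array, circles as deposited and squares on the common scale, lines join the means, and dashed lines are the array medians as deposited. Mest goes from 11.91 to 4.71, Grb10 from 3.52 to 7.22, and Rian stays under the array median throughout.

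Plagl1 and Ndn were lower already at day 2 and fell short of a further 2-fold decrease afterwards. Plagl1, a zinc finger transcription factor that acts on other imprinted genes, was at 6.54, 6.62 and 6.56 in cycling myoblasts, at 4.56 on all 3 day 2 arrays, and at 3.74, 3.59 and 3.65 at day 5. Its log2FC was -2.02 ± 0.025 and -1.65 ± 0.018 at day 2 and -2.91 ± 0.048 and -2.33 ± 0.047 at day 5. The day 5 level was under the array median, so the size of that decrease may be understated. Necdin Ndn, a protein of the MAGE family that restrains the cell cycle, was at 7.48 on all 3 cycling arrays, 5.15 on all 3 day 2 arrays and 4.50 on all 3 day 5 arrays. Its log2FC was -2.33 and -1.97 at day 2 and -2.98 and -2.22 at day 5. Between day 2 and day 5 neither gene moved by 2-fold, with log2FC -0.90 and -0.67 for Plagl1 and -0.65 and -0.24 for Ndn. The groups of arrays did not overlap for either gene in any comparison. This also held for Dlk1 and Igf2r on both scales, so it does not set these genes apart. Its share over all genes was not computed.

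Peg3 and Zim1, adjoining zinc finger genes read from opposite parental copies, had the reverse timing. Peg3 was at 10.35, 10.68 and 10.57 in cycling myoblasts, at 10.02 on all 3 day 2 arrays, and at 8.09, 8.26 and 8.35 at day 5. Its log2FC was -0.52 ± 0.098 and -0.36 ± 0.086 at day 2 and -2.30 ± 0.12 and -1.51 ± 0.11 at day 5. Zim1 was at 8.16, 8.27 and 8.22 in cycling myoblasts, at 7.98, 7.98 and 7.89 at day 2, and at 5.82, 5.94 and 6.01 at day 5. The log2FC of Zim1 was -0.27 ± 0.042 and -0.10 ± 0.036 at day 2 and -2.29 ± 0.066 and -1.40 ± 0.058 at day 5. Most of the decrease of both genes therefore lay between day 2 and day 5, where log2FC was -1.79 ± 0.074 and -1.15 ± 0.067 for Peg3 and -2.02 ± 0.065 and -1.30 ± 0.060 for Zim1. The highest replicate SD among the 8 genes, 0.169, was that of Peg3 in cycling myoblasts.

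Grb10, an adaptor that binds and dampens the insulin and IGF1 receptors, was the only one of the 8 that was at least 2-fold higher in any of the 3 comparisons on both scales. It was at 3.52 on all 3 cycling arrays, 5.39 on all 3 day 2 arrays and 7.22 on all 3 day 5 arrays, so each time point was above the one before. The log2FC was 1.87 and 1.81 at day 2 and 3.70 and 4.20 at day 5, or 13 and 18 times higher. From day 2 to day 5 it was 1.83 and 2.39. At day 5 Grb10 had the 36th highest log2FC of all genes as deposited and the 46th highest on the common scale. The cycling level was under the array median and is not shown to lie above background, so the exact size of the increase is not known.

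Igf2r and Dlk1 did not reach 2-fold in any comparison on either scale, and their direction by day 5 depended on the scale. The receptor Igf2r, which clears Igf2 from the cell surface, was at 8.05, 8.19 and 8.12 in cycling myoblasts, at 8.60, 8.61 and 8.60 at day 2, and at 7.95 on all 3 day 5 arrays. Its log2FC was 0.49 and 0.63 at day 2, and -0.17 and 0.67 at day 5. Dlk1, a membrane protein with EGF-like repeats related to Notch ligands, was at 5.57, 5.72 and 5.63 in cycling myoblasts, at 5.42 on all 3 day 2 arrays and at 4.99 on all 3 day 5 arrays. For Dlk1 log2FC was -0.22 and 0.12 at day 2 and -0.65 and 0.22 at day 5. The order of the time points was thus opposite on the 2 scales for Dlk1, with day 5 lowest as deposited and highest on the common scale.

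**Figure D2:**
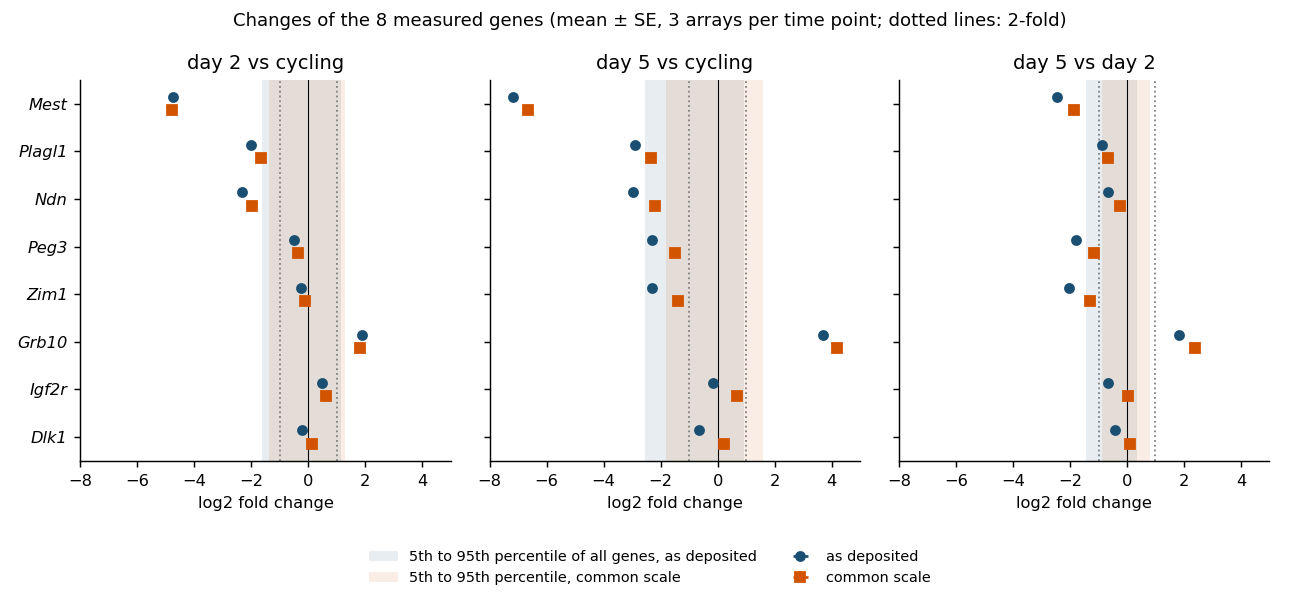
Log2 fold change (horizontal axis) of the 8 genes past the filter in the 3 comparisons, as mean ± SE with 3 arrays per time point; circles are as deposited, squares on the common scale, shaded bands hold the 5th to 95th percentile of all 16582 genes and dotted lines mark 2-fold. Each point is set here against the band of its own scale. Mest, Plagl1 and Ndn lie left of it at day 2 and day 5 against cycling myoblasts. Mest, Peg3 and Zim1 lie left of it between day 2 and day 5, and Grb10 lies to the right in all 3 panels.

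Counted on both scales, 3 of the 8 genes were at least 2-fold lower at day 2 (Mest, Plagl1 and Ndn), where 8.41% of all genes were, and 1 was higher, where 6.04% were. At day 5 against cycling myoblasts 5 were lower, with Peg3 and Zim1 added, and 1 was higher, against 12.3% and 4.44% of all genes. Between day 2 and day 5, 3 were lower (Mest, Peg3 and Zim1) and 1 higher, against 3.67% and 0.766%. The genes were gathered with these contrasts known, so the shares are given for scale only. The median log2FC of the 8 at day 5 was -2.30 and -1.45, beside -0.37 and 0.17 for all genes. The split of all genes at day 5 depended on the scale, with 736 higher and 4840 lower as deposited, 1960 and 2040 on the common scale, and 736 and 2040 on both. Between day 2 and day 5 the split was 127 and 2548, then 461 and 609, and 127 and 609 on both.

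Likeness of pattern was measured as the Euclidean distance over 4 values, the log2FC at day 2 and day 5 on both scales. The 5 genes nearest to Mest among 16581 were the spindle midzone kinesin Kif23 (distance 1.31), the cytokinesis gene Anln (1.503), the replicative helicase subunit Mcm6 (1.60), D17H6S56E-5 (1.81) and the centromere gene Cenph (1.85). All 5 were under the array median by day 2 and at day 5, whereas Mest was above it at both. Peg3 and Zim1 lay 0.376 apart, Zim1 being the 84th nearest gene to Peg3 and Peg3 the 57th nearest to Zim1. Ndn and Plagl1, which are on different chromosomes, lay 0.468 apart, Plagl1 being the 82nd nearest to Ndn and Ndn the 99th nearest to Plagl1. The distance from Mest to the nearest of the other 7, Ndn, was 7.16. For Dlk1 the nearest genes were the exonuclease gene Trex1 (0.0391), Ccdc61 (0.0470) and the pentose phosphate enzyme gene Rpia (0.0546).

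Neighbours in the imprinted domains did not all follow their domain's gene. From here on a gene is said to have risen or fallen where limma's adjusted p was below 0.05 and the change reached 2-fold in one direction on both scales. RMA was run on each time point as a set, and for the 8 genes 12 of the 24 triplets of arrays held 1 repeated value, so these p-values rest on too small a spread. The 2-fold limit alone gave the same numbers of calls among all genes. Counts at limma's unadjusted p below 0.05 are given too, but their share over all genes was not computed. Passing that limit was common: of 56 other imprinted genes tested at day 2, 33 were higher and 14 lower. Such counts are therefore a description and show no trend particular to a list. By this rule 6.04% of all genes rose and 8.41% fell at day 2, 4.44% and 12.3% at day 5, and 0.766% and 3.67% between day 2 and day 5. In the Mest domain limma called none of 3 neighbours, with 1 higher and 1 lower at day 5 on both scales at an unadjusted p below 0.05. Copg2, a coat protein gene that overlaps Mest, had log2FC 0.04 and 0.16 at day 2 and -0.49 and 0.32 at day 5, and Klf14 had 0.50 and 0.80, then 0.27 and 1.24. The microRNA gene Mir335 lies inside Mest. Its probe set was at 4.76 on all 3 cycling arrays, at 4.75, 4.77 and 4.75 at day 2 and at 4.00 on all 3 day 5 arrays, log2FC -0.00 and 0.19 at day 2. At day 5 Mir335 was the 1 neighbour lower on both scales at that unadjusted p, by less than 2-fold. Its mature sequence in RefSeq at chr6:30741314-30741336, plus strand, is shown because its host gene had the largest decrease, with the seed, bases 2 to 8, in capitals.
mmu-miR-335-5p: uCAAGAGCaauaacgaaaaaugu

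The Ndn domain held 4 measured neighbours and 1 was called by limma. At an unadjusted p below 0.05 on both scales, 2 were higher and 2 lower at day 2, and 1 higher and 3 lower at day 5. The median log2FC of the 4 was -0.28 and -0.12 at day 2 and -0.80 and -0.36 at day 5. Peg12 fell, from 6.87 on all 3 cycling arrays to 5.47 on all 3 at day 2 and 4.82 on all 3 at day 5, with log2FC -1.40 and -1.04, then -2.05 and -1.19. Magel2, the MAGE gene next to Ndn, had log2FC 0.89 and 0.86 at day 2 and 0.51 and 0.78 at day 5. Mkrn3 had 0.23 and 0.40, then -0.58 and -0.12. Beside Peg3 and Zim1, Usp29 was the 1 neighbour measured, with log2FC 0.50 and 0.46 at day 2 and 0.01 and 0.23 at day 5. Next to Grb10, the decarboxylase gene Ddc rose, from 5.47 on all 3 cycling arrays to 7.78, 7.78 and 7.77 at day 2, and was at 6.57, 6.58 and 6.57 at day 5. Ddc had log2FC 2.31 and 2.51 at day 2, 1.11 and 2.05 at day 5, and -1.20 and -0.47 between them, where Grb10 was higher still. Cobl, on the other side of Grb10, had log2FC 0.65 and 0.93, then 0.07 and 1.04. The 3 measured neighbours of Plagl1 were not called by limma. At an unadjusted p below 0.05 on both scales, 0 were higher and 3 lower at day 2, and likewise at day 5. Their median log2FC was -0.48 and -0.22 at day 2 and -1.05 and -0.15 at day 5.

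In the Igf2r domain, the noncoding Airn, which overlaps Igf2r, was at 5.46 on all 3 cycling arrays, 5.33 on all 3 day 2 arrays and 4.00 on all 3 day 5 arrays. It fell between day 2 and day 5, log2FC -1.33 and -1.05, where Igf2r had -0.66 and 0.04. None of the 5 measured neighbours of Dlk1 was called by limma at day 5, where 2 were higher and 0 lower at an unadjusted p below 0.05. The noncoding Meg3 had log2FC 0.46 and 0.46 at day 2 and -0.25 and -0.02 at day 5. H19 has no value, so no gene listed with it can be set beside it. Of the 14 of these that were measured, 3 rose at day 2 by limma's call and 0 fell, against 6.04% and 8.41% of all genes. At an unadjusted p below 0.05, 11 were higher and 1 lower, with no share over all genes to set beside this. The rises were the growth factor Igf2 (log2FC 1.15 and 1.30), the cell cycle inhibitor Cdkn1c (1.44 and 1.66) and Tssc4 (1.07 and 1.32). Igf2 has 0 coding genes between it and H19, whereas Tssc4 has 6 and Cdkn1c 9, so these 2 are not close neighbours. Igf2 was at 10.46, 10.57 and 10.47 in cycling myoblasts, at 11.64 on all 3 day 2 arrays and at 10.69, 10.63 and 10.71 at day 5, where log2FC was 0.18 and 0.79. Phlda2, a brake on placental growth with 11 coding genes between it and H19, rose at day 5 (log2FC 1.27 and 1.57).

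**Figure D3:**
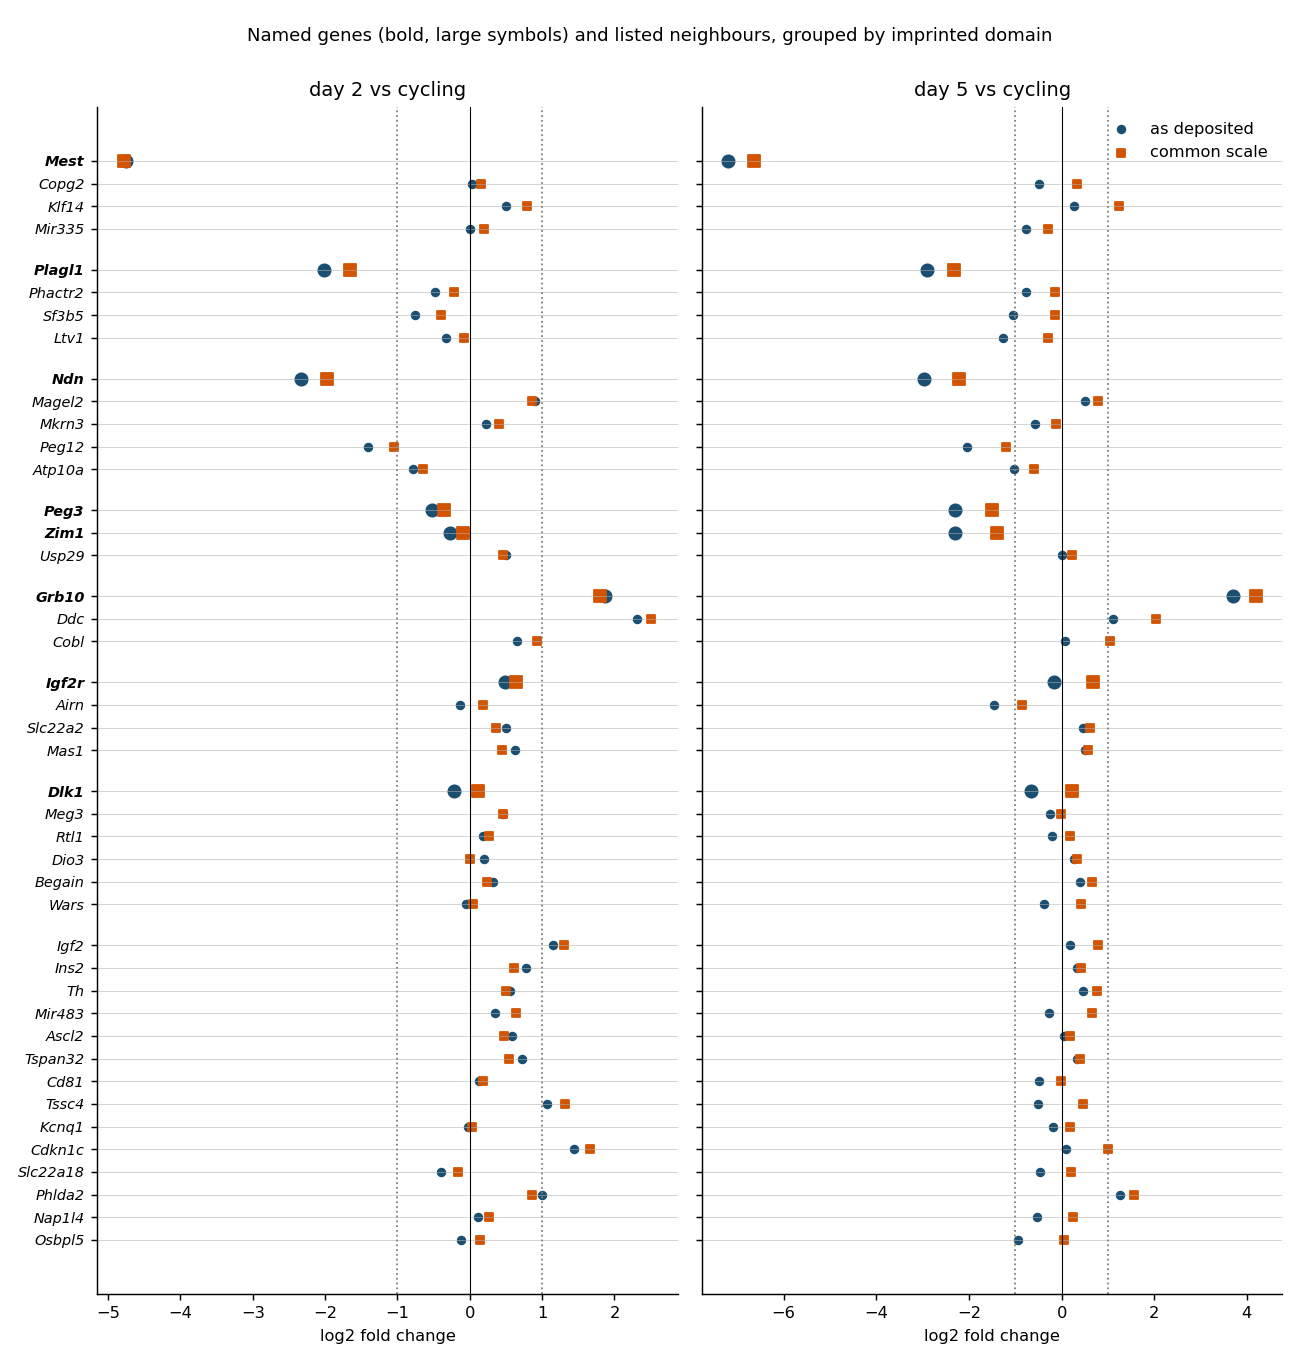
Log2 fold change at day 2 (left) and day 5 (right) against cycling myoblasts for each named gene (bold, large symbols) and the listed neighbours past the filter, grouped by imprinted domain; circles are as deposited, squares on the common scale, dotted lines mark 2-fold. Mest lies at -7.20 and -6.64 at day 5 while its 3 neighbours lie between -0.76 and 1.24.

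Beyond the 10 genes, 70 other imprinted genes were listed, of which 56 were tested. At day 2, 8 rose and 4 fell (14.3% and 7.14% of those tested, against 6.04% and 8.41% of all genes), and 44 were not called. The highest limma adjusted p among these calls was 4.15e-07, which rests on the same too small spread and is no measure of support. Zdbf2, a zinc finger gene tied to body growth, had the largest rise, from 4.44 on all 3 cycling arrays to 8.85, 8.92 and 8.87 at day 2 and 6.12, 6.24 and 6.61 at day 5. Its log2FC was 4.44 and 4.40 at day 2 and 1.88 and 2.62 at day 5, and it fell between them (-2.55 and -1.78). Qpct (2.05 and 1.94), whose cycling level was at or below the filter, also rose. The falls at day 2 were Sgce, a sarcoglycan gene (-1.49 and -1.10), Pon3 (-2.06 and -1.76), Inpp5f (-1.42 and -1.05) and Peg12.

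At day 5 against cycling myoblasts 4 of the 56 rose (Zdbf2, Ddc, Qpct and Phlda2) and 4 fell (Sgce, Pon3, Inpp5f and Peg12), against 4.44% and 12.3% of all genes. As deposited alone the split was 4 higher and 13 lower, and on the common scale alone 10 higher and 4 lower. Sgce had log2FC -2.47 and -1.78, Inpp5f -2.43 and -1.73, and Pon3 -2.36 and -1.47. The median log2FC of the 56 was -0.19 and 0.19 at day 5, beside -0.37 and 0.17 for all genes. From day 2 to day 5 Pon2 rose (1.25 and 1.89) and Peg10, Zdbf2 and Airn fell. Peg10, a retrotransposon-derived gene, had log2FC -1.67 and -1.04 there, and without day 5 replicate 3 it was -1.59 and -0.95 and no longer called.

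**Figure D4:**
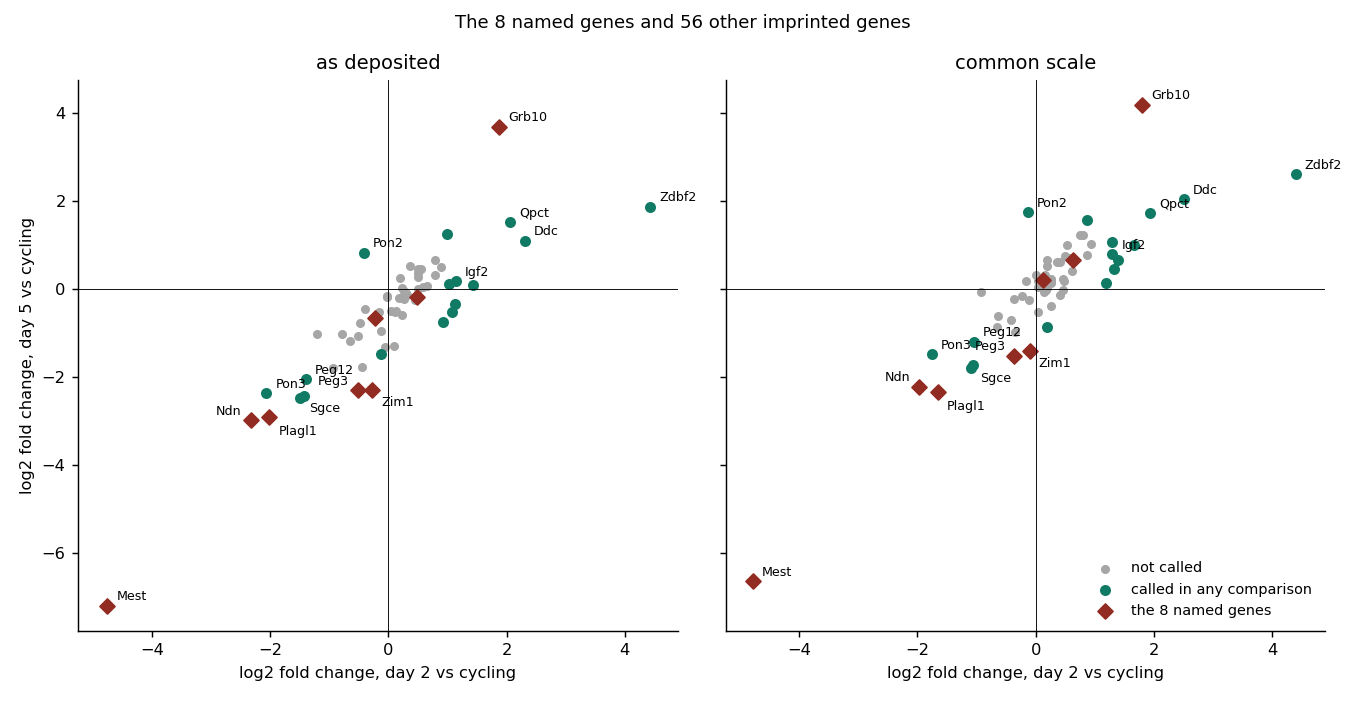
Log2 fold change at day 5 (vertical axis) against that at day 2 (horizontal axis), both relative to cycling myoblasts, as deposited (left) and on the common scale (right), for the 8 genes (diamonds) and 56 other imprinted genes (circles, filled green where called in any comparison). Mest and Grb10 lie at the lower left and upper ends, and Zdbf2 is highest at day 2 with log2FC 4.44 and 4.40. The axes share the cycling arrays.

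Partners of Grb10, Igf2r and Igf2 in IGF and insulin signalling moved in both directions. Of 19 tested, 3 rose and 2 fell at day 2, and 0 rose and 4 fell at day 5 by limma, against 6.04% and 8.41%, then 4.44% and 12.3%, of all genes. At an unadjusted p below 0.05, 6 were higher and 8 lower at day 5. The receptor gene Igf1r (log2FC -2.10 and -1.19) and the adaptor gene Irs1 (-2.74 and -1.87) were among the falls at day 5. The insulin receptor Insr (1.14 and 1.39) and Akt2 (1.31 and 1.51) rose at day 2 with Igf2. The binding proteins Igfbp2 (-2.60 and -2.37) and Igfbp3 (-1.41 and -1.28) fell at day 2, and at day 5 against cycling myoblasts log2FC was -3.73 and -2.98 for Igfbp2 and -3.73 and -2.85 for Igfbp3. Between day 2 and day 5 Igfbp5 rose (1.11 and 1.73) and Igf1r (-1.78 and -1.08) and Igfbp3 (-2.32 and -1.57) fell.

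Genes for the upkeep of imprints and their chromatin were mostly lower in myotubes. Of 17 tested, 7 fell and 1 rose at day 2 and 11 fell and 0 rose at day 5 by limma, against 8.41% of all genes lower at day 2 and 12.3% at day 5. At an unadjusted p below 0.05, 14 were lower and 2 higher at day 5, again with no share over all genes to set beside this. The median log2FC of the list at day 5 was -2.15 and -1.33. Zfp57, the zinc finger protein that guards methylated imprint control regions, was at 7.36 on all 3 cycling arrays, 5.85 on all 3 day 2 arrays and 4.56 on all 3 day 5 arrays, and fell at both times (-1.51 and -1.20, then -2.80 and -2.01). Its corepressor Trim28 fell at day 5 (-2.15 and -1.33), as did Zfp445 (-2.45 and -1.56), which also guards imprints, and the insulator protein gene Ctcf (-1.95 and -1.05). The maintenance methyltransferase Dnmt1 fell at both times (-2.51 and -2.32, then -3.07 and -2.23), and so did its cofactor Uhrf1 (-4.69 and -4.50, then -5.78 and -5.40) and the remodeller Hells (-4.66 and -4.45, then -5.46 and -5.03). Smchd1, the cohesin gene Smc1a and the Polycomb methyltransferase Ezh2 also fell at both times, to log2FC of -3.56 and -2.78, -2.73 and -1.87, and -4.04 and -3.18 at day 5, and Eed, the partner of Ezh2, at day 5 (-1.98 and -1.06). Dppa3 (1.48 and 1.33) was the rise at day 2, from a level of 2.70 that was under the filter value. Dnmt1, Uhrf1 and Hells also belong to the S phase programme of dividing cells.

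Small RNA genes hosted by imprinted transcripts gave few measurable values. Of 49 listed, 9 had no probe set of their own, 21 were below the filter and 19 were tested. At day 2, 2 rose, Mir409 (log2FC 1.19 and 1.08) and Mir665 (1.12 and 1.14), both of the Dlk1 and Rian domain, and 0 fell by limma's call, against 6.04% and 8.41% of all genes, with 5 higher and 6 lower at an unadjusted p below 0.05. At day 5 limma called 0 of the 19 in either direction, against 4.44% and 12.3% of all genes, with 6 higher and 7 lower at an unadjusted p below 0.05.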

How the data were processed

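The authors deposited log2 expression values made with RMA, which corrects background, equalises arrays and summarises probe sets. Per the series' design text, each set of replicates was normalized on its own, and no RMA version was found in the labels. The table held 35556 probe sets on 9 arrays, of which 21789 named 1 gene, 1621 several and 12146 none, and 0 columns were left out. Entrez identifiers of 21698 probe sets matched RefSeq (GRCm38.p6) and 0 symbols changed. Quantile normalization and linear models (lmFit and eBayes, a mean per time point, Benjamini-Hochberg over 16582 genes) were run with limma 3.58.1 in R 4.3.3. The linear models were also tried on simulated data. Those had independent noise on every array and no repeated values, so they cannot show that the p-values here hold. SEs of log2FC are from the replicate SDs. The array number limits precision. Genes named were the 10, their listed neighbours, the called genes of each list (up to 6 per direction in long lists) and the nearest by distance, while H19 had no pattern to match. The 10 genes and the lists were chosen with earlier results of these data known.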

Additional observations from a re-analysis of the deposited data

How the results depend on the processing

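The 6 counts of the named genes lower or higher were identical under all 17 alternatives: each scale alone, median centring, 2 other filters, the mean of probe sets, trended robust limma, the replicate block and leaving out each of the 9 arrays. Many of these settings could not change the counts, which rest on fold changes alone. The mean of probe sets could not, with 1 probe set per gene, nor could trended robust limma or the replicate block. Leaving out an array of a time point outside the comparison could not either. Other imprinted genes called lower at day 5 were 13 as deposited alone and 7 with median centring, and those called higher were 10 on the common scale alone. Between day 2 and day 5, 11 were lower as deposited and 8 with median centring. Over all genes at day 5, 4840 were lower as deposited and 3336 with median centring, and 1960 were higher on the common scale and 1413 with median centring. Between day 2 and day 5, 2548 and 1287 were lower as deposited and with median centring, and 461 and 234 higher on the common scale and with median centring. Each of these settings also drops the need to pass on both scales, and the cause of the shifts was not tested. Leaving out 1 array at a time gave 2 to 3 other imprinted genes lower between day 2 and day 5 (2 without day 5 replicate 3), with the remaining counts of imprinted genes the same and all genes lower at day 5 at 2031 to 2050. Same-numbered arrays did not deviate together (r from -0.038 to 0.106). This cannot exclude a pairing, since each time point was normalized apart. In addition, 47.9% of probe sets in cycling myoblasts and 60.2% at day 2 held 1 repeated value on all 3 arrays. With the replicate block 2040 genes were lower at day 5, as without it. The block leaves the fold changes as they are, and the 2-fold limit alone also gave 2040, so this count cannot decide on pairing. The common scale turned the sign of Dlk1 in all 3 comparisons and of Igf2r at day 5 in both. Signal over background is not in the deposited values, so low levels, such as Grb10 in cycling myoblasts, limit the sizes given.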
